A study of Mus musculus with 8 samples.

Results

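Natural killer (NK) cells of arthritic mouse joints were examined in single-cell RNA sequencing of CD45+ leukocytes from paws. They numbered 614 of the 10256 cells kept. A cell was selected on 3 limits, all of them measured values: at least 2 unique molecular identifiers (UMIs, each a tagged transcript) of Ncr1, Klrb1c, Klre1 and Klra8 together, at most 1 UMI of Cd3d, Cd3e, Cd3g and Trac together, and under 5% of UMIs from S100a8 and S100a9. The receptors mark NK cells, the T-cell receptor complex marks T-cells, and the S100 genes mark neutrophils. The levels of these 10 genes in NK cells are therefore a description and not a finding.

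All mice were C57BL/6, aged 10 weeks, and carried arthritis brought on by 3 doses of K/BxN serum, a source of antibodies that drive joint inflammation, given on day 0, day 2 and day 9. Transfer followed on day 12, with bone marrow monocytes of arthritic donors after 90 min in vehicle (Mono, 4 mice) or in 1 nM MCTR3 (Mono+MCTR3, 4 mice), and joints were collected on day 22. MCTR3 is a lipid mediator of the maresin conjugates family. No healthy mice and no arthritic mice without transferred monocytes are analysed here, so both groups share the serum, the disease and a monocyte transfer. The barcode suffix told the mice of a group apart without giving their labelled names, and mice are numbered here by that suffix. Each mouse gave its own cell suspension, so p-values measure the spread between mice.

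NK cells are innate lymphocytes that kill infected or transformed cells without a rearranged antigen receptor. Activating receptors such as NKp46 (Ncr1) and NKG2D (Klrk1) signal through small adaptors, inhibitory receptors of the Ly49 and NKG2A types read MHC class I, and killing is carried out by perforin and granzymes released from granules. In mice, maturing NK cells first carry CD27, then CD27 with CD11b (Itgam), and finally CD11b alone, and the last of these is known for high cytotoxic potential. NK cells also release interferon gamma and the chemokines Ccl3, Ccl4, Ccl5 and Xcl1, which draw in myeloid cells and T-cells.

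Because the selection asked for UMIs of the 4 receptor genes, their detection describes the members and tests nothing. All 4 were detected in 287 NK cells (46.7%), 3 in 245 cells, 2 in 77 cells and 1 in 5 cells. Klrb1c, the NK1.1 antigen, had a UMI in 91.0% of the cells (95% exact binomial interval 88.5 to 93.2), Klre1 in 90.9%, Ncr1 in 85.3% and the Ly49 receptor gene Klra8 in 65.3%. Such intervals cover counting error only. In genome build GRCm38, Ncr1 lies on chromosome 7 (4337724 to 4345164, plus strand). Klrb1c (128778485 to 128789215, minus strand), Klre1 (129577905 to 129585827, plus strand) and Klra8 (130115226 to 130129898, minus strand) all lie on chromosome 6, in the cluster of NK receptor genes.

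Few cells lay on the edges of the limits, and some cells left out had Gzma levels near those of members. Of the members, 10 held exactly 2 receptor UMIs and 604 held 3 or more, and 34 cells just outside the limit held 1 receptor UMI. Gzma, the gene of granzyme A, stood at 7572 UMIs per 1000000 UMIs (CPM) in the 10 members at the limit, 11106 CPM in the other members and 311 CPM in the 34 cells just outside. Another 75 cells met the receptor limit with 3 or more UMIs of the T-cell receptor complex and were left out, and Gzma was at 925 CPM in them. In 6 further cells with 2 such UMIs it was at 3794 CPM. A single UMI of the T-cell receptor complex was seen in 61 members, where Gzma was at 10219 CPM. The S100 limit left out 13 cells that met the other limits, 5 of them at 5 to 10% and 8 at 10% or more. Gzma stood at 8205 and 5216 CPM in these.

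Markers not used in the selection fit the label of NK cells, though not all were particular to them. Gzma was detected in 95.6% of the members, the chemokine Ccl5 in 99.3%, the granule protein Nkg7 in 99.7%, and the T-box factors Eomes and Tbx21 in 51.3% and 45.1%. Xcl1, a chemokine that acts on cross-presenting dendritic cells, was detected in 58.0%. Ccl5 and Xcl1 did not set members apart from the 75 cells left out with 3 or more UMIs of the T-cell receptor complex. In those cells they were at 20260 and 1373 CPM, and in members at 23595 and 1354 CPM. Gzma stood at 11329 ± 1516 CPM (SD, n = 8 mice) in NK cells, 125 CPM in T-cells, 13.9 CPM in B-cells and 23.0 CPM in neutrophils (mean of 8 mice each). These are described without a test, because the same cells had been selected for related receptors. T-cells here are cells with 2 or more UMIs of the T-cell receptor complex and none of the 4 receptors, so the receptor genes are at 0 in them by construction.

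The upstream sequences of Ncr1 and Gzma are shown because Ncr1 is among the selecting receptor genes and Gzma is the gene with the clearest difference between NK stages below. Each run is the 250 bases before the start site in RefSeq (GRCm38.p6), read along the gene, and capitals mark matches to TGTGGT, the core bound by RUNX factors, on either strand. The Ncr1 run is chr7:4337465-4337714 (plus strand, the more upstream of 2 listed starts), and the Gzma run is chr13:113100982-113101231 (minus strand).
Ncr1: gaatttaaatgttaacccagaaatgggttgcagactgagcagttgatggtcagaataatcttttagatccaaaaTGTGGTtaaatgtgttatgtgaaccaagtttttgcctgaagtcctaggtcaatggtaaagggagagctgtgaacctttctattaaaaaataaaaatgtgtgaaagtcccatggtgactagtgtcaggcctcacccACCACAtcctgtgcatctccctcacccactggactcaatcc
Gzma: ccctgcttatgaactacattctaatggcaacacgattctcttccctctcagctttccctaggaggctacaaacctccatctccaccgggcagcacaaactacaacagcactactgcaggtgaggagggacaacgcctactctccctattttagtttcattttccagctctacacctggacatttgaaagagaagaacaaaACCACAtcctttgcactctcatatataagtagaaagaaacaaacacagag

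The Ncr1 run held 2 matches, starting 176 and 41 bases before the start site, and the Gzma run held 1, starting 50 bases before it. Of the 6 marker genes (Ncr1, Klrb1c, Klre1, Klra8, Gzma and Xcl1), 5 held TGTGGT in at least 1 listed start, beside 14% of all 32851 listed promoters. The longer form TGTGGTT was found in 4 of the 6 genes (4.4% of all promoters) and overlaps the shorter one. The ETS core GGAAGT was found in 2 genes (19.7% of all) and the T-box element TCACACC in Xcl1 alone (3.33% of all). The longer T-box form AGGTGTGA (1.12% of all) and the E-box CACGTG (6.02% of all) were in none of them. A match describes these letters and is not a site of binding. Ncr1, Klre1 and Klra8 have 2 listed starts each, and the motifs were chosen after the marker genes were known.

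**Figure D1:**
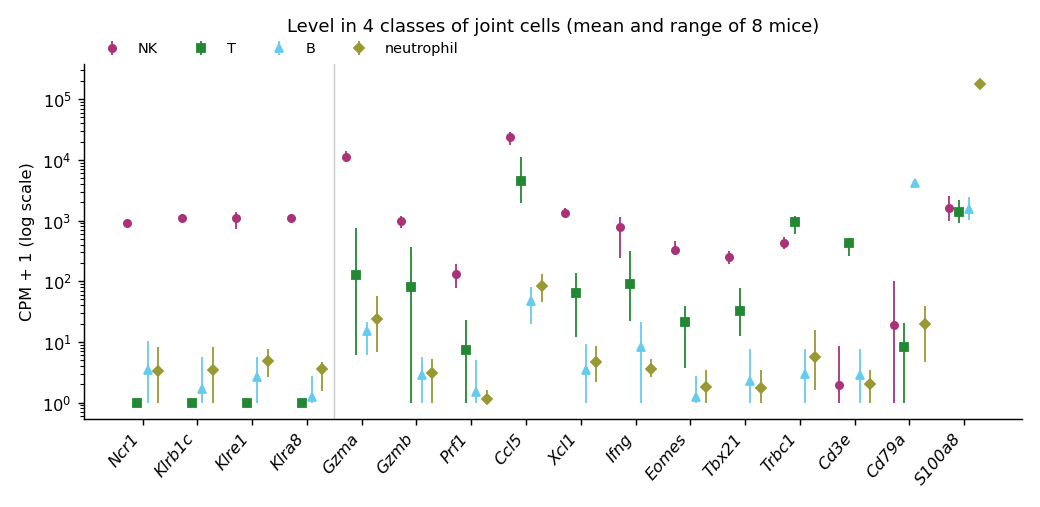
Level of 16 genes in NK cells, T-cells, B-cells and neutrophils, as CPM plus 1 on a log axis; each marker is the mean of 8 mice and each bar the range. The 4 genes left of the line chose the NK cells; Gzma stood at 11329 CPM in NK cells and 125 CPM in T-cells, and S100a8 at about the same level in NK cells, T-cells and B-cells.

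Genes of other cell types were mostly scarce, apart from neutrophil transcripts and genes that NK cells share. In all NK cells together, the T-cell genes Cd5 and Cd4, which the selection did not use, had 1 UMI each, and Cd6, Cd8a and Cd8b1 had 0. The 12 T-cell markers summed to 834 to 969 CPM in Mono and 803 to 1080 CPM in Mono+MCTR3, or 1477 UMIs. They include Trbc1 and Trbc2, given below, and the T-cell genes of the selection. The B-cell gene Pax5 had 5 UMIs, and the macrophage genes Adgre1 and C1qb had 0. The 14 monocyte and macrophage markers summed to 944 to 1426 CPM in Mono and 1245 to 1354 CPM in Mono+MCTR3, or 1996 UMIs. Most of these came from Ly6c2 (1171 UMIs) and Ccr2 (536 UMIs), which NK cells also carry, and from Lyz2 (274 UMIs). At least 1 UMI of Lyz2, Csf1r, C1qa, C1qb or C1qc was seen in 201 NK cells (32.7%) and at least 2 in 53 (8.63%). Cd79a, a subunit of the B-cell receptor, had 36 UMIs, and 28 of them came from Mono mouse 4. The summed level of the 9 B-cell markers was 193 to 578 CPM in Mono and 163 to 330 CPM in Mono+MCTR3. The 10 dendritic-cell markers, which include MHC class II genes, summed to 513 CPM in the same Mono mouse 4 and to 40.7 to 212 CPM in the other mice. Neutrophil transcripts were found in nearly every cell, and 448 NK cells (73.0%) held at least 2 UMIs of 5 neutrophil genes other than the S100 genes. S100a8 stood at 1580 CPM in NK cells, 1404 CPM in T-cells, 1523 CPM in B-cells and 177130 CPM in neutrophils. T-cells and B-cells, like NK cells, were chosen with under 5% of UMIs from S100a8 and S100a9, and neutrophils with 10% or more. The gap to neutrophils was therefore set by the selection. The 13 neutrophil markers together ran from 3491 to 4094 CPM in Mono and from 2419 to 6303 CPM in Mono+MCTR3.

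Genes of the related innate lymphoid cells ILC1, ILC2 and ILC3 were low in sum, with some members present. The 12 ILC1 genes had 341 UMIs in all, led by Cxcr3 with 124, and 6 of them reached 20 UMIs. The 9 ILC2 and ILC3 genes had 113 UMIs, of which Gata3, a factor that NK cells also express, held 111. Itga1 had 2 UMIs and Cxcr6 had 9 in the 614 cells, the ILC2 receptor gene Il1rl1 had 1, and Il5, Il13, Il17a and Il22 had 0. A count of 0 allows no more than 3 UMIs in the 1652522 UMIs of these cells. Il7r, which ILC1 and immature NK cells carry, had 18 UMIs. Constant-region transcripts of T-cell receptor genes that are transcribed without a productive rearrangement in NK cells were present, with Trbc1 in 58.0% of the cells, Trbc2 in 32.4% and Trdc in 23.6%. Trbc1 stood at 431 ± 68.3 CPM in NK cells and 940 CPM in T-cells.

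The series as a whole gave 1731045 to 6009009 UMIs per mouse, and NK cells gave 98340 to 416185. Median UMIs per NK cell were 2153 to 3039. Pairs of mice shared 0 to 8 barcodes, and 1 NK cell was called a doublet. Neutrophils, taken as cells with 10% or more of UMIs from S100a8 and S100a9, made up 5898 of the cells kept. Shares are given over all cells and over the 3678 cells under 5%, called outside neutrophils below, so cells between the limits are in neither set.

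Activating receptors and their adaptors were detected in all 8 mice. Klrk1 (NKG2D) was detected in 93.8% of the cells and ran from 1309 to 1499 CPM over the 8 mice. Ncr1 stood at 897, 858, 834 and 1051 CPM in Mono and at 1021, 779, 875 and 898 CPM in Mono+MCTR3. These values, and those of Klrb1c and Klre1 below, are a description, since these genes chose the members. Tyrobp (DAP12) and Fcer1g (FcRγ), adaptors that carry the signal of receptors without their own signalling tail, were each detected in 99.7% of the cells. Tyrobp ran from 3682 to 4342 CPM and Fcer1g from 2958 to 3732 CPM. Klrb1c ran from 949 to 1302 CPM and Klre1, which pairs with Klri receptors, from 730 CPM in Mono+MCTR3 mouse 4 to 1393 CPM in Mono+MCTR3 mouse 3. Klra4, an activating Ly49 gene, ran from 1051 to 1830 CPM.

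Ly49 transcripts were detected in mixed sets in single cells. Klra8 is among the genes counted and helped choose the members, so the counts are a description. Of 6 Ly49 genes counted, 215 NK cells (35.02%) held 3, 145 held 4, 129 held 2, 56 held 1, 37 held 5, 3 held all 6 and 29 held none. Klra7 was detected in 66.1% of the cells, Klra8 in 65.3%, Klra4 in 58.6%, Klra9 in 53.1%, Klra3 in 27.0% and Klra1 in 13.5%. These genes are near-identical neighbours on chromosome 6, so reads may be split between them or lost. Each level, and the number of these genes counted per cell, is therefore uncertain. The inhibitory pair Klrd1 (CD94) and Klrc1 (NKG2A) was detected in 92.8% and 37.1%. Checkpoint receptors were scarce, with 0 UMIs of Pdcd1 and Havcr2, 1 of Lag3 and 2 of Tigit.

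The killing machinery was rich in granzymes A and B. Gzma stood at 12769, 10767, 11749 and 11958 CPM in Mono and at 10282, 9303, 13809 and 9997 CPM in Mono+MCTR3. Gzmb, which cleaves caspases, stood at 1179, 1050, 1134 and 1029 CPM in Mono and at 775, 757, 936 and 1141 CPM in Mono+MCTR3. In 3 Mono+MCTR3 mice Gzmb was below every Mono mouse, and mouse 4 lay within the Mono range. Prf1, the pore-forming perforin, was detected in 28.5% of the cells and ran from 75.4 to 194 CPM. Gzmc, Gzmk and Gzmm were rare, with 10, 10 and 30 UMIs. Fasl, the ligand of the death receptor Fas, was detected in 54.2% of the cells and Tnfsf10 (TRAIL) in 1.3%.

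Chemokine transcripts outnumbered those of other secreted factors. Ccl5 stood at 26969, 25361, 26053 and 23634 CPM in Mono and at 17568, 20480, 28971 and 20542 CPM in Mono+MCTR3. Mouse 3 of Mono+MCTR3 was above every Mono mouse and the other 3 were below all of them. Ccl4 ran from 2724 to 6585 CPM and Ccl3 from 1644 to 2639 CPM. Xcl1 stood at 1194, 1165, 1621 and 1527 CPM in Mono and at 1344, 1450, 1190 and 1331 CPM in Mono+MCTR3, all of the latter within the Mono range. Ifng was detected in 52.3% of the cells and varied widely, from 245 CPM in Mono mouse 1 to 1127 CPM in Mono mouse 2. Tnf, Csf2, Lta and Il10 had 7, 12, 8 and 1 UMIs in all NK cells, and Areg had 0.

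**Figure D2:**
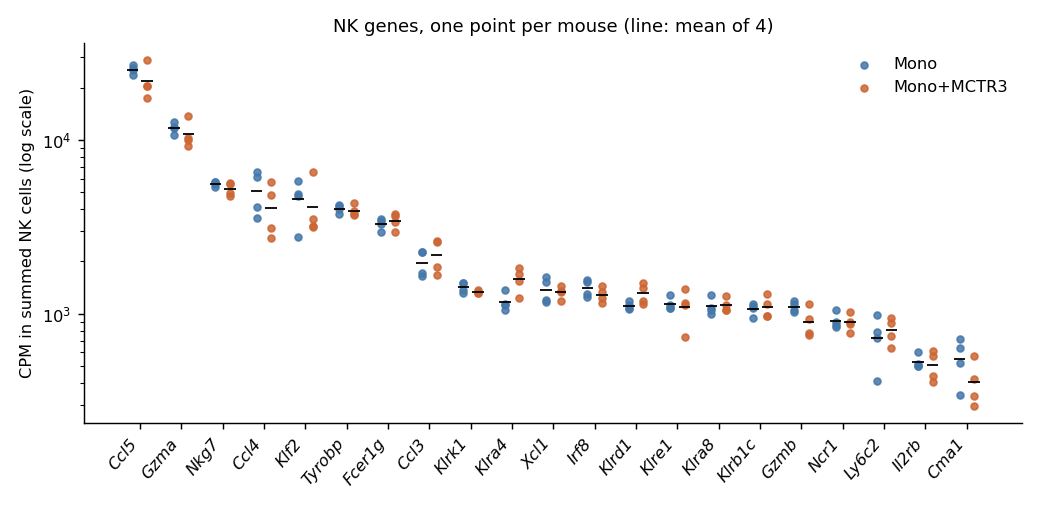
CPM of 21 genes in the summed NK cells of each mouse, on a log axis, with 1 point per mouse and a line at the mean of the 4 mice of a group. The points of Mono and Mono+MCTR3 overlap for most genes; Gzma ran from 9303 to 13809 CPM over the 8 mice.

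The share of NK cells was lower in Mono+MCTR3 by its mean, but the mice overlapped. Of all cells in Mono mice, 3.73, 9.76, 5.86 and 8.26% were NK cells, against 4.11, 4.81, 3.97 and 6.73% in Mono+MCTR3. The lowest and the highest value both came from Mono. The means were 6.90 ± 2.66% (SD, n = 4) and 4.91 ± 1.27% (SD, n = 4), a difference of −1.995 percentage points (two-sided exact permutation test, p = 0.257, adjusted over the 2 shares 0.514). The smallest p that 4 against 4 mice allow is 0.0286. Without Mono mouse 2 the difference was −1.04 and without Mono mouse 1 it was −3.05 points. A lower share can come from fewer NK cells or from more of the other cells, and the 2 cannot be told apart.

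Outside neutrophils the shares were 10.6, 29.1, 18.2 and 17.9% in Mono and 10.5, 11.1, 22.3 and 23.6% in Mono+MCTR3. Both groups thus held mice near 11% and mice above 20%. The means were 18.95 ± 7.59% and 16.9 ± 7.07% (SD, n = 4 each), a difference of −2.07 points (exact permutation test, p = 0.629, adjusted 0.629). The direction turned without Mono mouse 2 (1.29 points) or without Mono+MCTR3 mouse 1 (0.0588 points). Without Mono mouse 1 it was −4.84 points.

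**Figure D3:**
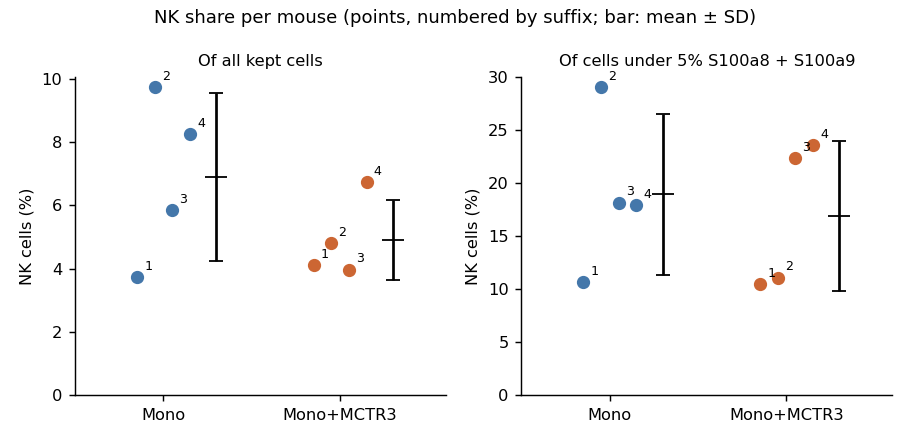
NK cells as a percentage of all kept cells and of cells under 5% of UMIs from S100a8 and S100a9, 1 point per mouse numbered by barcode suffix, with the mean and SD of 4 mice at the side. The mice of both groups overlap in both panels.

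The transcript levels of NK cells were then compared between the groups, the question the transfer of MCTR3-treated monocytes poses for this cell type. No gene passed the threshold: of 2156 genes tested on UMIs summed per mouse (edgeR quasi-likelihood test, Benjamini-Hochberg adjusted p under 0.05), 0 were called, 0% of those tested. The smallest adjusted p was 0.879. At an unadjusted p under 0.05 there were 103 genes, and DESeq2 and the likelihood ratio test of edgeR also called 0, with 28 and 107 genes at that unadjusted level. A missed threshold does not show that the cells were alike: the standard error was 0.11 on the log2 scale for Gzma, 0.25 for Prf1 and 0.32 for Ifng.

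Among the 14 tested genes of cytotoxic granules and killing, fold changes ran from −0.56 for Prf1 to 0.21 for Serpinb6b on the log2 scale. Gzma differed by −0.10 ± 0.11 (log2 fold change of Mono+MCTR3 against Mono ± SE), Gzmb by −0.27 ± 0.14, Nkg7 by −0.08 ± 0.10 and Ccl5 by −0.20 ± 0.12. Prf1 stood at 157 ± 34.4 CPM in Mono and 105 ± 45.3 CPM in Mono+MCTR3 (SD, n = 4 each), −0.56 ± 0.25. Xcl1 differed by −0.02 ± 0.13 and Ifng by 0.15 ± 0.32. None of these differences passed the threshold. No fold change is read from the 4 selecting receptors, whose summed UMIs chose the members.

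Gene lists showed small medians on both sides of 0, beside a median of 0.01 over the 2149 named genes tested. Over all those genes, 1097 fold changes were positive and 1052 negative. Of 14 tested genes of cytotoxic granules and killing, 9 had negative fold changes (median −0.09 on the log2 scale). Of 12 genes of mature NK cells, 9 were negative (median −0.21), and of 9 genes of immature NK cells, 7 were positive (median 0.22). Examples are Cma1, a mast-cell chymase gene that mature NK cells also carry, at −0.44 ± 0.22, and Ctla2a, a cathepsin inhibitor, at 0.22 ± 0.15. The 11 activating receptors tested include the 4 selecting genes, so their median and signs are not read. Inhibitory receptors (7 tested) were split 3 positive to 4 negative. Of 8 receptor adaptors 6 were positive (median 0.08), and of 7 cytokines and chemokines 4 were positive (median 0.15). None of these genes was called, and no list was tested as a set. Some lists share genes, such as Gzmb and Xcl1, so their signs are not independent.

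Of 10 genes for cytokine receptors and signalling, 7 were positive (median 0.01), of 15 for homing and adhesion 9 were negative (median −0.05), and of 13 transcription factors 9 were negative (median −0.10). Heat-shock genes were negative in 9 of 10 (median −0.19), immediate early genes positive in 8 of 11 (median 0.11), and the 4 interferon response and 6 cell cycle genes tested had medians of 0.12 and 0.01. Heat-shock and immediate early genes varied strongly between mice of a group, and the part of tissue handling in this spread was not tested. The summed level of the 10 heat-shock genes ran from 5806 to 14676 CPM in Mono and from 6051 to 11308 CPM in Mono+MCTR3. Hspa1a ran from 408 CPM in Mono mouse 1 to 3222 CPM in Mono mouse 2, and it is near-identical to Hspa1b, so its level is uncertain.

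**Figure D4:**
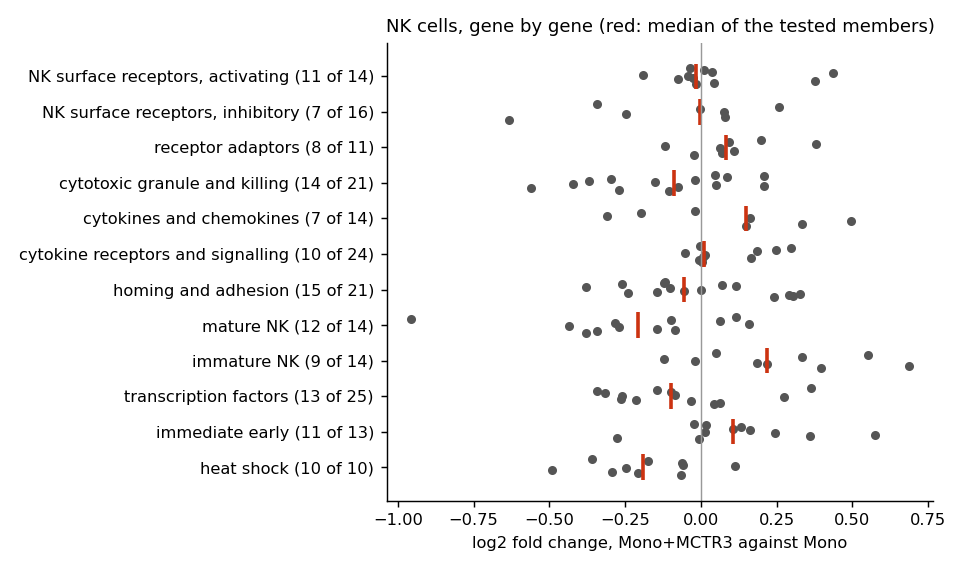
Log2 fold change of Mono+MCTR3 against Mono in NK cells for each tested gene of 12 lists, with the median in red and, in brackets, the genes tested of those listed. No gene was called; the medians run from −0.21 for mature NK genes to 0.22 for immature NK genes.

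The genes with the smallest p in each direction are given as values only, since none was called. They were picked by that p, so a gap between the groups follows from the pick and is no support. Atrx, a chromatin remodeller, stood at 156, 151, 170 and 148 CPM in Mono and at 281, 219, 224 and 205 CPM in Mono+MCTR3 (0.60 ± 0.16, adjusted p = 0.879 by edgeR). Arhgap9, a GTPase-activating protein of leukocytes, stood at 104 to 139 CPM in Mono and 171 to 251 CPM in Mono+MCTR3 (0.67 ± 0.18). Clk3 (1.12 ± 0.30), Litaf (0.85 ± 0.23) and Ttc14 (0.72 ± 0.22) followed on that side. Hdac1, a histone deacetylase, stood at 208, 190, 165 and 188 CPM in Mono and at 75.4, 118, 142 and 122 CPM in Mono+MCTR3 (−0.70 ± 0.20). Psme2, an activator subunit of the proteasome, stood at 336 to 360 CPM in Mono and 224 to 284 CPM in Mono+MCTR3 (−0.44 ± 0.14). Vps36 (−0.76 ± 0.25), Sbno1 (−0.73 ± 0.25) and Unc119 (−0.61 ± 0.22) followed. Among receptors and early genes, Klra4 (0.44 ± 0.14) and Junb (0.57 ± 0.18) had positive values, and Junb reached 3119 CPM in Mono+MCTR3 mouse 4 beside 1461 CPM in mouse 2.

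NK cells were then set apart by Itgam and Cd27. Itgam without Cd27 was detected in 116 cells (18.9%), Cd27 without Itgam in 132 (21.5%), both in 31 (5.05%) and neither in 335 (54.6%). Itgam is also a neutrophil gene: a UMI of it was seen in 23.9% of NK cells, 32.4% of neutrophils, 1.30% of T-cells (median 3470 UMIs per cell) and 1.88% of B-cells (median 2262). Cd27 was seen in 26.5% of NK cells and 1.19% of neutrophils. A missing UMI of so scarce a transcript does not show a missing protein, and cells with neither had the fewest UMIs (median 2203). Median UMIs were 2370 in Itgam+ Cd27- cells and 2923 in Cd27+ Itgam- cells. These 2 sets were compared within the 8 mice, with the mouse as a block. Each sum rests on few cells. Itgam+ Cd27- cells numbered 14, 30, 17 and 19 in Mono mice and 8, 13, 7 and 8 in Mono+MCTR3. Cd27+ Itgam- cells numbered 7, 23, 16 and 25 in Mono mice and 15, 27, 6 and 13 in Mono+MCTR3. This split was chosen by Itgam and Cd27, which are left out of the calls.

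Of 522 genes tested, 55 were called (10.5%), 28 higher (5.36%) and 27 lower (5.17%) in Itgam+ Cd27- cells (edgeR quasi-likelihood test, adjusted p under 0.05). Scaling by library totals in place of TMM called 23 higher and 49 lower, 72 in all, of which 50 were among the 55. DESeq2 called 30, and leaving out Mono+MCTR3 mouse 2 or mouse 4 gave 29 and 35. The direction of no called gene changed in any of the 15 alternatives. Of the 55 genes, 18 were called in every alternative that was run. Of the 28 higher genes, 14 were higher in all 8 mice, and of the 27 lower genes 24 were lower in all 8.

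Of 10 tested genes of cytotoxic granules and killing, 4 were called higher in Itgam+ Cd27- cells and 0 lower. The other 6 did not pass, and 3 of them had negative values, down to −0.22 ± 0.21 for Serpinb6b. Gzma stood at 14845 ± 1615 CPM (SD, n = 8 mice) in Itgam+ Cd27- cells and 7691 ± 1058 CPM in Cd27+ Itgam- cells, 1.03 ± 0.08 as log2 fold change and SE (edgeR adjusted p = 4.8e-07). The lowest mouse of the former, at 11961 CPM, was above the highest of the latter, at 9352 CPM. Gzmb stood at 1123 ± 317 and 681 ± 430 CPM (0.97 ± 0.25, higher in 7 of 8 mice), and Nkg7 at 6024 ± 821 and 4456 ± 636 CPM (0.51 ± 0.09, higher in 8 of 8). Ctsd, a lysosomal protease, was at 0.63 ± 0.13. Gzma was called in all 15 alternatives, Nkg7 and Ctsd in 14 and Gzmb in 13.

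All 4 tested genes of the mature NK list rose. Ly6c2, a surface antigen of late NK cells that monocytes also carry, stood at 943 ± 470 CPM in Itgam+ Cd27- cells and 239 ± 268 CPM in Cd27+ Itgam- cells, 2.08 ± 0.32 on the log2 scale. Cma1 stood at 740 ± 182 and 224 ± 157 CPM, 2.002 ± 0.23. Irf8, a transcription factor of innate lineages, was at 0.96 ± 0.22, and Gzmb is also on this list. The monocyte genes Adgre1 and F13a1 had 0 UMIs and Csf1r 1 UMI in all NK cells together. At least 1 UMI of Lyz2, Csf1r, C1qa, C1qb or C1qc was still seen in 201 NK cells (32.7%). The part of monocyte transcripts in the Ly6c2 values was not tested.

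Of the 4 tested genes of the immature NK list, 2 fell and 0 rose. Ctla2a stood at 374 ± 168 CPM in Itgam+ Cd27- cells and 1024 ± 345 CPM in Cd27+ Itgam- cells, −1.38 ± 0.21, and Cd7, a surface protein of early lymphoid cells, at 291 ± 110 and 653 ± 154 CPM, −1.09 ± 0.18. Both were lower in 8 of 8 mice and called in all 15 alternatives. Xcl1 stood at 1264 ± 575 and 1746 ± 725 CPM and did not pass (−0.45 ± 0.31, adjusted p = 0.376 by edgeR), and Cd2 was at 0.00 ± 0.14. Ccr2, the receptor that leads cells out of bone marrow, was lower by the same comparison (−0.97 ± 0.24, lower in 7 of 8 mice), as was Ly6e (−0.96 ± 0.27). Ccr2 was called in 12 of the 14 alternatives that tested it, and Ly6e in 11 of 15.

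Of 5 inhibitory receptors 2 rose, the Ly49 gene Klra9 (1.33 ± 0.27) and Klrd1 (0.45 ± 0.12), called in 15 and 9 alternatives. Of 4 adaptors 1 rose, Fcer1g (0.32 ± 0.09, called in 6 alternatives). Among the 8 activating receptors tested, the 1 call was Klra8, which the selection of members used, so its levels of 1290 ± 156 and 925 ± 291 CPM are a description. Klrk1 (0.04 ± 0.13) and Tyrobp (0.14 ± 0.08) did not pass. Of 5 cytokines and chemokines 2 rose, Ccl5 at 29946 ± 4765 and 21428 ± 5486 CPM (0.58 ± 0.10, higher in 8 of 8 mice) and Ccl4 (0.70 ± 0.20, called in 5 alternatives). Ccl3 (0.38 ± 0.32) did not pass.

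Other genes that rose were the integrin chain Itgb2, which pairs with Itgam (0.78 ± 0.19), the phosphatase gene Dusp2 (0.86 ± 0.19) and the nuclear RNA Neat1 (0.88 ± 0.19). They were called in 13, 15 and 14 alternatives. The linker histone genes Hist1h1c (0.87 ± 0.22) and Hist1h1e (0.81 ± 0.23) rose too. Hist1h1c was called in 12 alternatives, and Hist1h1e in 7 of the 13 that tested it. The factor Klf2 also rose (0.56 ± 0.16, called in 6 alternatives). Hsp90aa1 and Dnajb1 of the heat-shock list also rose, called in 4 and 2 alternatives. Of 5 transcription factors 2 rose, Irf8 and Klf2, and of 5 homing and adhesion genes Itgb2 rose and Ccr2 fell. Of 4 tested genes for cytokine receptors and signalling none was called, of 9 immediate early genes none, of 2 cell cycle genes none, and no interferon response gene passed the filter on low counts.

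Ribosomal protein genes made up 20 of the 27 genes lower in Itgam+ Cd27- cells. Of the 83 tested, 81 had negative fold changes (median −0.24) and 0 were called higher. Over all 521 named genes tested, 228 were negative (median 0.04). Rpl12 (−0.72 ± 0.14), Rps20 (−0.55 ± 0.11), Rpl36a (−0.47 ± 0.11) and Rpl4 (−0.43 ± 0.10) had the lowest values among those called. The ribosome-associated Rack1 (−0.43 ± 0.13) and Gm9493 (−0.52 ± 0.16) were lower too, called in 6 and 7 of 15 alternatives. Some of these genes have pseudogene copies that can share reads. The 2 sets also differed in UMIs per cell, as given above, and the part of depth in these values was not tested.

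**Figure D5:**
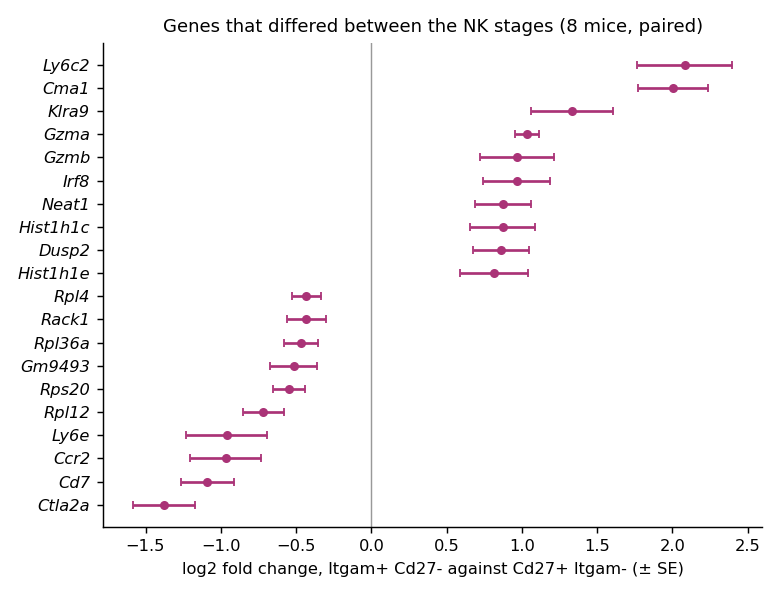
Log2 fold change with SE of Itgam+ Cd27- against Cd27+ Itgam- NK cells, compared within 8 mice, for the 10 called genes with the highest and the 10 with the lowest values. Ly6c2, Cma1, Klra9 and Gzma lead the higher genes, and Ctla2a, Cd7, Ccr2 and Ly6e lead the lower ones.

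The make-up of the NK cells was set beside the groups after these values had been seen. The Itgam+ Cd27- share of NK cells was 32.6, 19.5, 24.6 and 17.3% in Mono mice and 14.5, 14.1, 17.5 and 15.7% in Mono+MCTR3, so that 3 Mono mice lay above every Mono+MCTR3 mouse. The means were 23.5 ± 6.79% and 15.5 ± 1.51% (SD, n = 4 each), a difference of −8.02 points (exact permutation test, p = 0.0571, adjusted over 4 classes 0.229). The Mono+MCTR3 shares rest on 8, 13, 7 and 8 such cells. With NK cells thinned to 1000 UMIs (605 cells, 9 left out) the means were 11.9 ± 3.15% and 10.7 ± 2.88%, a difference of −1.17 points (exact permutation test, p = 0.6). The Cd27+ Itgam- share was 19.3 ± 4.28% in Mono mice and 24.3 ± 6.38% in Mono+MCTR3, a difference of 4.995 points (exact permutation test, p = 0.2, adjusted 0.4). After the same thinning it was 8.84 ± 5.62% and 13.2 ± 0.915%, a difference of 4.375 points (exact permutation test, p = 0.314).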

How the data were processed

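Single-cell 3′ libraries of CD45+ joint cells were analysed from the UMI counts the authors deposited, 1 table per group, made with Cell Ranger (STAR, GRCm38) and joined within a group by its aggregation step, which can equalise depth within but not between groups. Their versions: not given in the sources used here. Of 10538 barcodes and 28434 gene rows, 10256 cells were kept by 3 limits: 250 to 3000 genes, 500 or more UMIs, and no more than 5% of UMIs from mitochondrial genes. Doublets (Scrublet in scanpy 1.11.5, 52 called, 0.507%) were kept.

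The members, gene lists and tests were chosen with earlier results of these data known. Cd244 was respelled Cd244a to match the tables; Flt3l is not analysed here. UMIs of NK cells were summed per mouse, or per mouse and stage with the mouse as block, and tested with edgeR 4.0.16 (TMM, filterByExpr, glmQLFit, glmQLFTest; R 4.3.3), after the procedure was tested on simulated data. SE is the absolute log2 fold change over the square root of F. CPM are UMIs per 1000000 NK UMIs. Shares were compared by two-sided exact permutation tests (scipy 1.17.1). DESeq2 1.42.0, other scalings, filters, gates and each mouse left out served as alternatives. Named genes are the marker genes, the 10 largest changes per direction and fit (or the 5 smallest p among genes with at least 50 UMIs where fewer than 3 passed), and from each list the 4 of highest mean CPM plus every called member; further genes of the lists were named after their values were seen. Rows that repeat a name (17) or read as a date (26) stayed in the fit and out of the text. Coordinates are from GENCODE vM21. A few genes of the marker lists are not reported here.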

Additional observations from a re-analysis of the deposited data

Results flagged for a closer look

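Among 168 groups of 4 mice examined for a single mouse far from the other 3, 9 were picked out by Dixon's criterion, and chance alone picks about 1 in 20. In Mono, Rps20 was 1115 CPM in mouse 2 beside 1448 to 1461 CPM in the others, and Rpl36a was 1580 CPM in mouse 1 beside 1292 to 1317 CPM. Also in Mono, Il2rb was 599 CPM in mouse 3 beside 497 to 513 CPM, Tubb5 was 282 CPM in mouse 3 beside 200.2 to 213 CPM, and Cd2 was 690 CPM in mouse 4 beside 529 to 556 CPM. In Mono+MCTR3, Klra9 was 905 CPM in mouse 1 beside 624 to 657 CPM, and Klf2 was 6579 CPM in mouse 3 beside 3176 to 3537 CPM. Ifi203 was 169 CPM and Hmgb2 was 793 CPM in Mono+MCTR3 mouse 2, beside 112 to 117 CPM and 529 to 571 CPM in the other 3 mice.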

How the results depend on the processing

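The count of 0 genes between the groups held under every alternative except the one without a filter on low counts, where 5 of 11835 genes were called, all lower in Mono+MCTR3. They were chosen by that result: Ccl1, whose 26 UMIs all came from Mono mouse 3, Cd74, Iglc1 and Iglc3, with 74 of 117, 62 of 69 and 59 of 63 UMIs from Mono mouse 4, and Gxylt1, with 47 UMIs in Mono and 6 in Mono+MCTR3. For the stage comparison, 55 genes became 30 with DESeq2, and the cause was not tested. Leaving out each mouse gave 29 to 71 genes, 29 without Mono+MCTR3 mouse 2 and 35 without mouse 4, with fewer samples in each fit, and 0 to 0 genes between the groups. The fit with no replicate block called 45. The NK share of all cells differed by −3.05 to −1.04 points, and that outside neutrophils by −4.84 to 1.29 points, when each mouse was left out. Every gate and cell filter alternative, and removing called doublets (added after the data were seen), kept the direction of both shares. No paired analysis was possible between the groups because suffix numbers do not pair mice. Scarce transcripts limit the rest: 2156 of 28434 gene rows could be tested between the groups and 522 between the stages.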
